A study of Arabidopsis thaliana with 42 samples.

Results

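Cytochrome P450 genes were followed through roots and shoots of Arabidopsis thaliana plants given low, normal or excess zinc. The genes were all those whose probe set on the array was paired with 1 gene and whose symbol is CYP followed by a family number and a subfamily letter. There were 23 of them among 22746 probe sets, and they make up 9.75% of the 236 genes with such a symbol in RefSeq, so most P450 families are not described here. In 22 cases the gene belongs to clan 71, the largest plant clan: 19 are CYP71B genes, and the others are CYP78A9, CYP79A2 and CYP84A4. The 23rd is CYP51G2 of clan 51. The 19 CYP71B genes stand against 36 CYP71B genes in RefSeq. RefSeq annotates CYP71B27 and CYP51G2 as transcribed pseudogenes and the other 21 genes as protein-coding.

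A double mutant with T-DNA insertions, bzip19 bzip23, hit in the genes of 2 related transcription factors, was set against wild type (WT). Both were of the ecotype Columbia (Col-0), so the insertions were the labelled difference between them. Plants grew in nutrient solution with 2 µM ZnSO4 for 3 weeks and for the last 1 week had low (0.05 µM), normal (2 µM) or excess (25 µM) zinc. They were 4 weeks old at harvest, and each sample pooled whole roots or whole shoots of 6 plants from 2 containers, so that all cell types of an organ were measured together. The 12 groups of tissue, genotype and zinc supply held 4 arrays each in roots and 3 each in shoots, 42 in all. The labels do not say that replicates came from separate cultures, so p-values measure the spread between these samples.

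Cytochrome P450s are haem enzymes that use molecular oxygen and electrons from NADPH, passed on by a P450 reductase, to hydroxylate or otherwise oxidise small molecules. Plants hold very many of them, most fixed in the endoplasmic reticulum, and they act in the synthesis of phenylpropanoids, sterols, hormones, terpenoids and defence compounds. The family number and the subfamily letter reflect sequence similarity, and the CYP71B subfamily of Arabidopsis lies largely in tandem arrays left by gene duplication. bZIP19 and bZIP23 are the regulators of the zinc deficiency response, which switch on zinc transporter genes when zinc is scarce.

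Values are deposited log2 levels, 1 per probe set and array, from robust multi-array averaging. A call means an adjusted p under 0.05 (limma, Benjamini-Hochberg over 22746 probe sets), and differences are given as log2 of the condition named first over the other. The bZIP19 probe set checked the genotype labels: mutant minus WT was -5.24, -5.40 and -5.12 log2 in roots as the supply went up, and -4.34, -4.43 and -4.05 log2 in shoots. Its highest mean in any mutant group, 4.92 log2, served as a floor for the signal of a transcript that is largely missing, and where the lower of 2 means lay at or below it the fold is a bound taken from the floor. The 4 measured of 16 photosynthetic markers (PSAN, CHLM, PORB and RCA), averaged on each array, gave 6.34 to 7.62 log2 in roots and 11.90 to 12.44 log2 in shoots. The 2 measured of 13 root markers, the root hair expansins EXPA7 and EXPA18, averaged in the same way, gave 7.12 to 8.70 log2 in roots and 5.70 to 6.06 log2 in shoots. The array file names in the labels carry 4 codes whose meaning is not stated: 1 for roots at low zinc, 1 for roots at normal and excess zinc, 1 for shoots at low and normal zinc, and 1 for shoots at excess zinc. A pair of arrays stood apart from their groups. Replicate 1 of WT shoots at low zinc had an actin 3′ minus 5′ difference of 6.12 log2, against at most 1.95 log2 on every other array, a sign of degraded RNA, and replicate 2 of WT roots at excess zinc had the lowest mean correlation of any root array with its group, 0.980. Called differences of P450 genes and of their pathway partners in comparisons that hold these arrays are given with and without them.

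The 23 genes lay in few places. In RefSeq order, CYP71B27, CYP71B28 and CYP71B29 stood within a run on chromosome 1 that holds 7 P450 genes among 12 genes. CYP71B16, CYP71B21, CYP71B22, CYP71B23 and CYP71B24 belonged to a run on chromosome 3 with 11 P450 genes among 17. CYP71B25, CYP71B26, CYP71B34, CYP71B35, CYP71B36 and CYP71B37 belonged to a neighbouring run of 8 genes, all of them P450s, with 6 annotated genes between the runs. CYP71B5, CYP71B30P and CYP71B31 stood in a run of 4 P450 genes among 6, also on chromosome 3. The remaining 6 genes, CYP51G2, CYP71B6, CYP71B38, CYP78A9, CYP84A4 and CYP79A2, had no other P450 gene within 5 genes. The measured genes that share a run all belong to the CYP71B subfamily. Whether a probe set of 1 CYP71B gene also binds the transcript of another was not tested.

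Signal above the floor was found for 18 of the 23 genes. The other 5, CYP71B16, CYP71B21, CYP71B30P, CYP71B31 and CYP79A2, were at or below it in all 12 groups. CYP71B31 takes part in the oxidation of linalool in flowers, and CYP79A2 turns phenylalanine into phenylacetaldoxime on the way to benzylglucosinolate. For CYP79A2 the lowest, median and highest of the 24 root arrays were 4.29, 4.40 and 4.68 log2, and the 18 shoot arrays gave 4.35, 4.60 and 4.83 log2. CYP71B31 ran from 3.90 through 3.98 to 4.12 log2 in roots and from 3.93 through 4.06 to 4.32 log2 in shoots. No array of either gene passed the floor. CYP71B16 ranged from 4.24 to 4.50 log2 in roots and from 4.27 to 4.58 log2 in shoots, CYP71B21 from 4.02 to 4.30 log2 and from 4.10 to 4.40 log2, and CYP71B30P from 4.34 to 4.67 log2 and from 4.48 to 4.70 log2. Above the floor in at least 1 group of both tissues were 14 genes, and 4 (CYP71B24, CYP71B25, CYP71B35 and CYP71B36) passed it in shoots and in none of the 6 root groups.

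**Figure D1:**
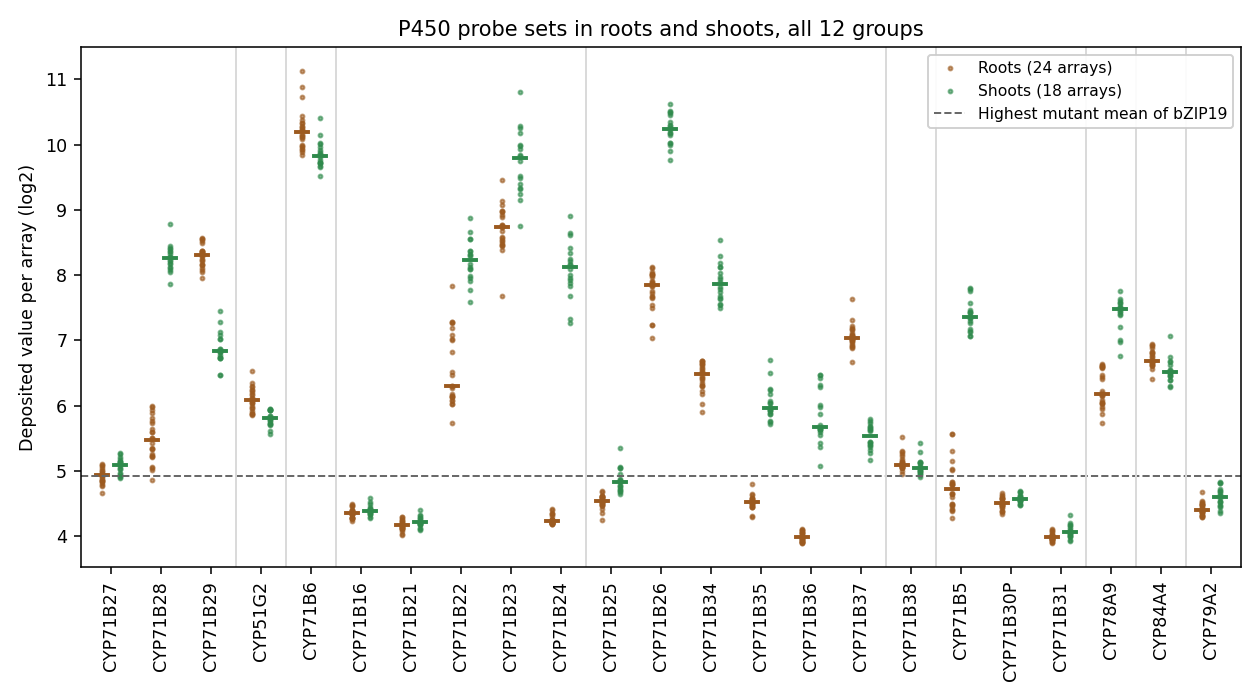
Log2 level of each of the 23 P450 genes on every array, 24 of roots and 18 of shoots, in genome order, with medians as bars, thin lines between runs and the floor of 4.92 log2 dashed. CYP71B29 and CYP71B37 lie higher on every root array than on any shoot array, and 8 other genes lie lower.

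Most of the genes with a tissue difference were lower in roots. In WT at normal zinc, 14 of 23 genes (60.9%) differed between roots and shoots, against 60.8% of all probe sets, so the share that differed was that of the array as a whole. The direction was less even: 3 genes (13.0%) were higher in roots, against 35.6% of all probe sets, and 11 (47.8%) were lower in roots, against 25.2%. Differences of at least 2-fold were called in 11 genes (47.8%) and in 25.3% of all probe sets. Over the 23 genes the median difference of roots minus shoots was -0.18 log2, beside 0.05 log2 over all probe sets. Roots and shoots carry different array file codes in the labels, so tissue and code cannot be told apart, and in bulk tissue fewer cells of a type and less RNA per cell cannot be told apart either.

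In the chromosome 3 run of CYP71B16 to CYP71B24, 3 of the 5 measured genes were lower in roots, and the others stayed at the floor. The arrays of CYP71B24 read 4.21, 4.26, 4.21 and 4.19 log2 in WT roots at normal zinc, against 7.68, 8.10 and 8.24 log2 in WT shoots. The root arrays were all at the floor and the shoot arrays far above it: the difference was -3.79 log2 (SE 0.17, adjusted p = 1.26e-20), so CYP71B24 was at least 8.50-fold lower in roots. Across the 6 genotype and zinc conditions the difference lay between -4.29 and -3.49 log2. CYP71B22 averaged 6.09 ± 0.24 log2 in roots (SD, n = 4) and 8.05 ± 0.08 log2 in shoots (SD, n = 3), and was 3.89-fold lower in roots (adjusted p = 1.34e-08). CYP71B23 averaged 8.45 ± 0.58 log2 in roots and 9.61 ± 0.31 log2 in shoots, 2.22-fold lower in roots (adjusted p = 1.91e-05). The root and shoot arrays of CYP71B23 were apart in 5 of the 6 conditions, and those of the other 2 genes in all 6.

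The neighbouring run, from CYP71B25 to CYP71B37, held 5 genes lower in roots and 1 higher. CYP71B26 had strong signal in both organs, with 8.13, 8.01, 8.04 and 7.83 log2 in WT roots at normal zinc against 10.30, 10.22 and 10.17 log2 in WT shoots. CYP71B26 was thus 4.68-fold lower in roots (log2 difference -2.23, SE 0.17, adjusted p = 4.22e-14). CYP71B34, 2.67-fold lower in roots, averaged 6.46 ± 0.18 log2 there and 7.88 ± 0.08 log2 in shoots (adjusted p = 2.99e-11). Both were lower on each of the 24 root arrays than on any of the 18 shoot arrays. CYP71B35 averaged 4.59 ± 0.15 log2 in roots and 6.06 ± 0.39 log2 in shoots, at least 2.21-fold lower in roots (adjusted p = 5.76e-13). CYP71B36 read 3.89, 3.98, 3.99 and 3.92 log2 in roots against 5.87, 6.42 and 5.65 log2 in shoots, at least 2.09-fold lower in roots (a log2 difference of -2.04, SE 0.17, adjusted p = 6.21e-13). In both genes the root arrays sat at the floor. CYP71B25 was below the floor in both organs in this comparison, with a difference of -0.26 log2 (adjusted p = 0.0124) that lost its call without replicate 3 of WT shoots at normal zinc (-0.20 log2, adjusted p = 0.0877).

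CYP71B37, which lies directly beside CYP71B36 with no annotated gene between them, ran the other way. It read 6.91, 7.16, 7.00 and 7.01 log2 in WT roots at normal zinc, against 5.73, 5.64 and 5.43 log2 in WT shoots. The 4 root arrays lay above the 3 shoot arrays, a 2.67-fold higher level in roots (log2 difference 1.42, SE 0.13, adjusted p = 9.07e-12). The same contrast between direct neighbours was present on chromosome 1. CYP71B28 read 5.60, 5.34, 5.22 and 4.87 log2 in WT roots against 8.07, 8.21 and 8.28 log2 in WT shoots, 7.65-fold lower in roots (log2 difference -2.94, SE 0.18, adjusted p = 4.63e-17). CYP71B29, with no annotated gene between it and CYP71B28, read 8.22, 8.10, 8.04 and 8.07 log2 in roots against 6.84, 7.03 and 6.86 log2 in shoots, 2.30-fold higher in roots (log2 difference 1.20, SE 0.14, adjusted p = 3.90e-09). In these 2 adjacent pairs each gene kept its direction in all 6 genotype and zinc conditions without overlap between root and shoot arrays: CYP71B36 differed by -2.29 to -1.43 log2, CYP71B37 by 1.39 to 1.76 log2, CYP71B28 by -3.19 to -2.40 log2 and CYP71B29 by 1.20 to 1.63 log2. The third gene of the chromosome 1 run, CYP71B27, stayed close to the floor in both organs, with medians of 4.94 log2 over root arrays and 5.10 log2 over shoot arrays.

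CYP71B5 was the 1 gene of its run above the floor. It averaged 4.53 ± 0.24 log2 in WT roots at normal zinc and 7.43 ± 0.35 log2 in WT shoots, at least 5.71-fold lower in roots (a log2 difference of -2.90, SE 0.15, adjusted p = 3.51e-19). Among the genes that stand alone, CYP78A9, which promotes the growth of fruits and seeds, averaged 6.40 ± 0.32 log2 in roots and 7.14 ± 0.27 log2 in shoots, 1.67-fold lower in roots (adjusted p = 0.000782). CYP51G2, the annotated pseudogene related to the sterol 14-demethylase CYP51G1, averaged 6.18 ± 0.24 log2 in roots and 5.79 ± 0.12 log2 in shoots, 1.31-fold higher in roots (adjusted p = 0.00187). These were small gaps beside those of CYP71B5 and CYP71B24. CYP71B6, an enzyme of indole metabolism that turns indole-3-acetonitrile into indole-3-carboxylic acid, had 9.94 ± 0.11 log2 in roots and 9.78 ± 0.06 log2 in shoots and was not called (log2 difference 0.16, adjusted p = 0.246). CYP84A4, which acts in the synthesis of arabidopyrones, had 6.66 ± 0.08 log2 in roots and 6.59 ± 0.11 log2 in shoots (adjusted p = 0.538), and CYP71B38 had 5.25 ± 0.21 and 5.16 ± 0.24 log2 in roots and in shoots (adjusted p = 0.46).

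The separation was also read over all 42 arrays. Every root array lay above every shoot array in 2 genes, CYP71B29 and CYP71B37 (8.70% of the 23), against 17.6% of all probe sets. Every root array lay below every shoot array in 8 genes (34.8%), against 14.4% of all probe sets: CYP71B28, CYP71B24, CYP71B26, CYP71B34, CYP71B35, CYP71B36, CYP71B5 and CYP78A9. The closest approach among these 8 was that of CYP78A9, whose highest root array had 6.64 log2 and whose lowest shoot array had 6.77 log2.

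**Figure D2:**
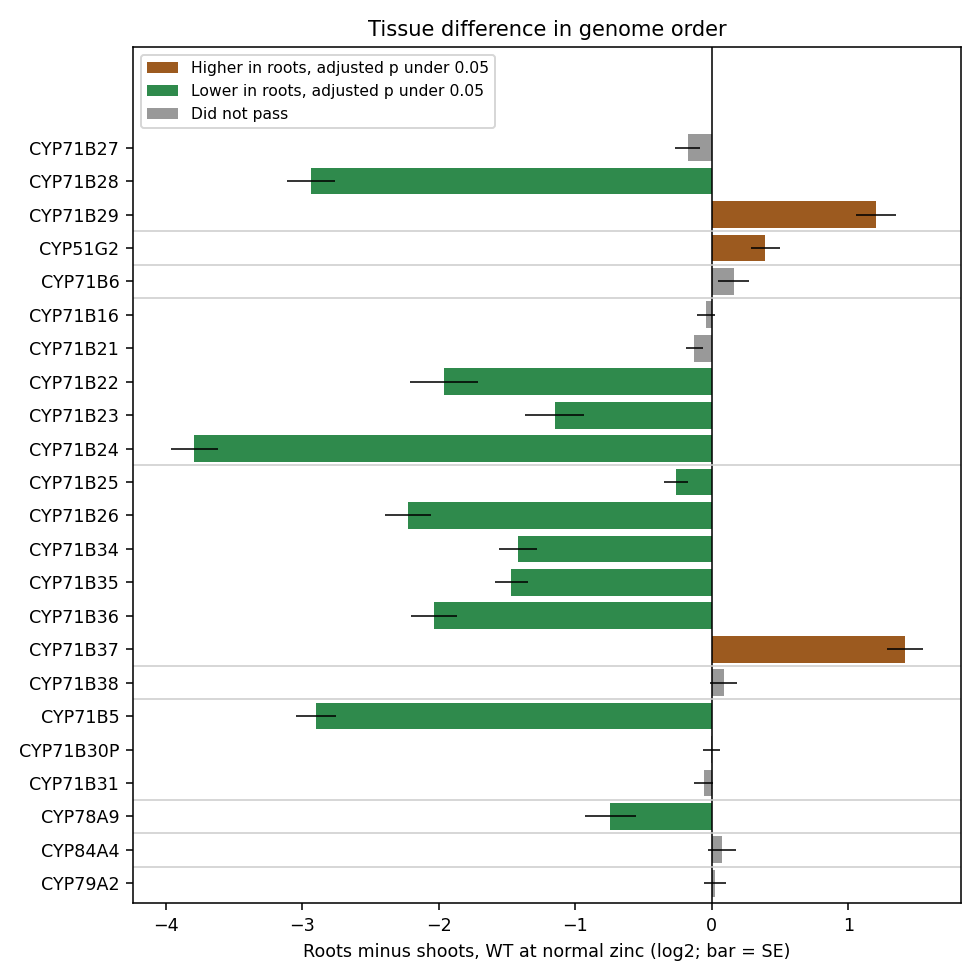
Roots minus shoots on the log2 scale for the 23 P450 genes in WT at normal zinc, in genome order, with standard errors from the fit and lines between runs. CYP71B28 (-2.94) and CYP71B29 (1.20), and CYP71B36 (-2.04) and CYP71B37 (1.42), are adjacent pairs on opposite sides of 0.

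Excess zinc raised 4 of the 23 genes in WT roots and lowered none. These 4 (17.4%) stand beside 9.70% of all probe sets called in either direction and 5.96% called higher. Over the 23 genes the median difference of excess minus normal zinc was -0.01 log2, beside -0.00 log2 over all probe sets, so the set had no common shift in its median. At an unadjusted p under 0.05 the share of members was 17.4% as well, below the 22.1% of all probe sets. Both supplies carry the same array file code in roots.

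CYP71B6 had the smallest adjusted p of the 4. Its arrays read 10.74, 11.13, 10.88 and 10.33 log2 in WT roots at excess zinc, against 10.09, 9.92, 9.89 and 9.84 log2 at normal zinc. All 4 arrays at excess zinc were above all 4 at normal zinc, and the level was 1.78-fold higher (log2 difference 0.83, SE 0.11, adjusted p = 3.49e-05). CYP71B22 read 7.09, 7.83, 6.83 and 7.01 log2 at excess zinc against 6.31, 6.18, 6.13 and 5.74 log2 at normal zinc. Again the groups did not overlap, and CYP71B22 was 2.14-fold higher (SE 0.23 on the log2 scale, adjusted p = 0.00284). CYP71B5 read 5.57, 5.31, 5.57 and 4.80 log2 at excess zinc and 4.65, 4.39, 4.81 and 4.29 log2 at normal zinc. The groups of CYP71B5 overlapped by 1 array, and since the mean at normal zinc was under the floor its rise was at least 1.31-fold (0.78 log2, SE 0.14, adjusted p = 0.000624). CYP71B29 read 8.52, 8.55, 8.37 and 8.34 log2 at excess zinc and 8.22, 8.10, 8.04 and 8.07 log2 at normal zinc, without overlap, 1.26-fold higher (log2 difference 0.33, SE 0.08, adjusted p = 0.0134). Groups that did not overlap were found in 3 genes (13.0%) and in 10.2% of all probe sets.

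Without replicate 2 of WT roots at excess zinc, which stood apart, all 4 genes were still called, with differences of 0.72 log2 for CYP71B6, 0.88 log2 for CYP71B22, 0.78 log2 for CYP71B5 and 0.30 log2 for CYP71B29. With only the 8 arrays of the 2 groups in the fit, CYP71B6 and CYP71B22 were called and CYP71B5 (adjusted p = 0.0581) and CYP71B29 (adjusted p = 0.0659) were not. CYP71B29 was also not called with all 42 arrays in one fit (adjusted p = 0.120). Of the 4 photosynthetic markers, 2 were called lower in this comparison, PSAN (log2 difference -1.30, adjusted p = 0.0112) and CHLM (-0.61, adjusted p = 0.022). Both were still called without replicate 2 at excess zinc. PORB and RCA were not called, with differences of 0.01 and -0.32 log2 without that replicate. The mean of the 4 per array was 6.34 to 6.66 log2 in WT roots at excess zinc and 6.66 to 7.38 log2 at normal zinc. The part of these markers in the rise of the P450 genes was not tested.

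The same change of supply in mutant roots called 1 gene, CYP71B5 (4.35%, against 5.07% of all probe sets). CYP71B5 read 4.83, 5.03, 5.02 and 5.15 log2 at excess zinc against 4.46, 4.49, 4.60 and 4.49 log2 at normal zinc in the mutant. The groups did not overlap, yet the levels were at the edge of the floor and the rise was at least 1.06-fold (0.50 log2, SE 0.14, adjusted p = 0.0362). The call was lost without any 1 of 7 of these 8 arrays, with differences of 0.45 to 0.53 log2 in those fits, and was kept only without replicate 1 at excess zinc. It was also lost with only the root arrays of the file code that normal and excess zinc share (adjusted p = 0.0861). The other 3 genes that rose in WT had smaller differences in the mutant, none of them called: 0.27 log2 for CYP71B29 (adjusted p = 0.0669), 0.25 log2 for CYP71B6 (adjusted p = 0.25) and 0.14 log2 for CYP71B22 (SE 0.23). The photosynthetic markers had a median difference of -0.44 log2 in the mutant, beside -0.38 log2 in WT. Their mean per array was 6.47 to 7.23 log2 in mutant roots at excess zinc and 7.16 to 7.62 log2 at normal zinc. PSAN (log2 difference -1.16, adjusted p = 0.0344) was the 1 of 4 called lower, CHLM was not called (-0.52, adjusted p = 0.0748), and their part was not tested.

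Set directly against WT roots at excess zinc, mutant roots had lower levels of 2 genes (8.70%, against 1.48% of all probe sets, and 0.853% called lower). CYP71B6 read 10.26, 10.33, 10.15 and 10.38 log2 in mutant roots against 10.74, 11.13, 10.88 and 10.33 log2 in WT roots. The lowest WT array fell among the mutant arrays, and the difference was -0.49 log2 (SE 0.12, adjusted p = 0.0330). CYP71B22 read 6.07, 6.52, 6.13 and 6.15 log2 in mutant roots against 7.09, 7.83, 6.83 and 7.01 log2 in WT roots, without overlap (log2 difference -0.97, SE 0.23, adjusted p = 0.0358). Both calls could be lost by leaving out 1 array. Without replicate 2 of WT roots at excess zinc both differences were smaller in size. They were -0.37 log2 for CYP71B6 (adjusted p = 0.101) and -0.76 log2 for CYP71B22 (adjusted p = 0.112). Both calls were also lost without replicate 1 of WT roots or replicate 1 or 3 of mutant roots at excess zinc. The differences were then -0.50 to -0.45 log2 for CYP71B6 and, for mutant replicates 1 and 3, -0.92 and -0.94 log2 for CYP71B22. Without the WT array both differences were slightly larger in size than with all arrays, yet the adjusted p was 0.0833 for both genes. CYP71B6 alone was also lost without replicate 3 of WT roots (-0.45 log2) or replicate 2 of mutant roots (-0.51 log2) at excess zinc. The last of these differences was again slightly larger in size than with all arrays. With only the 8 arrays of the 2 groups in the fit, neither CYP71B6 (adjusted p = 0.345) nor CYP71B22 (adjusted p = 0.263) was called. The 4 photosynthetic markers had a mean per array of 6.47 to 7.23 log2 in mutant roots and 6.34 to 6.66 log2 in WT roots at excess zinc, with none called between the genotypes, and their part in these differences was not tested. The test of whether the response to excess zinc itself differed between the genotypes was not passed by either gene (CYP71B6 -0.59 log2, adjusted p = 0.472, and CYP71B22 -0.95 log2, adjusted p = 0.594), although CYP71B6 passed it without replicate 4 of WT roots at excess zinc. In that test 3 probe sets in all were called (0.0132%), and 2 of the 23 genes had an unadjusted p under 0.05, against 6.92% of all probe sets.

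**Figure D3:**
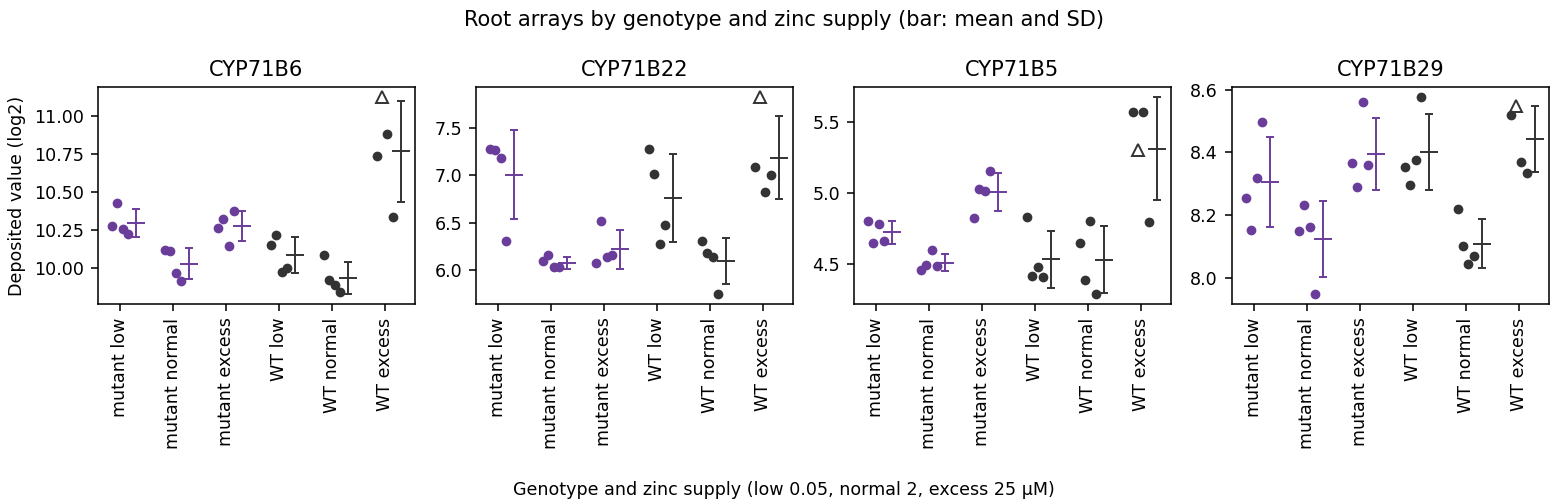
Log2 levels of CYP71B6, CYP71B22, CYP71B5 and CYP71B29 on each of the 24 root arrays by genotype and zinc supply, with bars for group mean and SD. At excess zinc the WT arrays of CYP71B22 lie above those of the mutant, and the triangle marks replicate 2 of WT roots at excess zinc.

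Low zinc called none of the 23 genes in roots (limma). Of all probe sets, 0.0484% were called in mutant roots and 0.132% in WT roots, and at an unadjusted p under 0.05 there were 4 of the 23 genes (17.4%) in each genotype, against 6.95% of all probe sets in the mutant and 9.14% in WT. Low and normal zinc carry different array file codes in roots, so code and supply cannot be told apart. CYP71B22 came closest in the mutant, with 7.28, 7.26, 7.19 and 6.31 log2 at low zinc against 6.09, 6.15, 6.02 and 6.03 log2 at normal zinc. All 4 arrays at low zinc were above those at normal zinc, but replicate 4 stood well below the other 3, and the difference was 0.94 log2 (adjusted p = 0.144). CYP71B22 was called without that array. In WT roots CYP71B22 read 7.28, 7.02, 6.27 and 6.47 log2 at low zinc against 6.31, 6.18, 6.13 and 5.74 log2 at normal zinc (log2 difference 0.67, adjusted p = 0.322). CYP71B29 had the smallest adjusted p of the 23 genes in WT roots, with a difference of 0.29 log2 (adjusted p = 0.221). In mutant roots 6 genes (26.1%) had groups that did not overlap between low and normal zinc, against 4.00% of all probe sets. These were CYP71B6, CYP71B22, CYP71B26, CYP71B5, CYP71B31 and CYP79A2. None of them was called, and CYP71B31, CYP79A2 and, in these groups, CYP71B5 were at or below the floor.

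No member was called between mutant and WT roots at low or normal zinc (limma). The shares of all probe sets called were 0.0835% and 0.0572%, and none of the 23 genes had an unadjusted p under 0.05 in either comparison, where 8.83% and 11.7% of all probe sets did. The differences ran from -0.26 to 0.35 log2 at low zinc and from -0.13 to 0.38 log2 at normal zinc. No member passed the test of whether the response to low zinc differed between the genotypes in roots either (0.0176% of all probe sets called, and none of the 23 genes at an unadjusted p under 0.05 beside 3.57% of all probe sets).

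**Figure D4:**
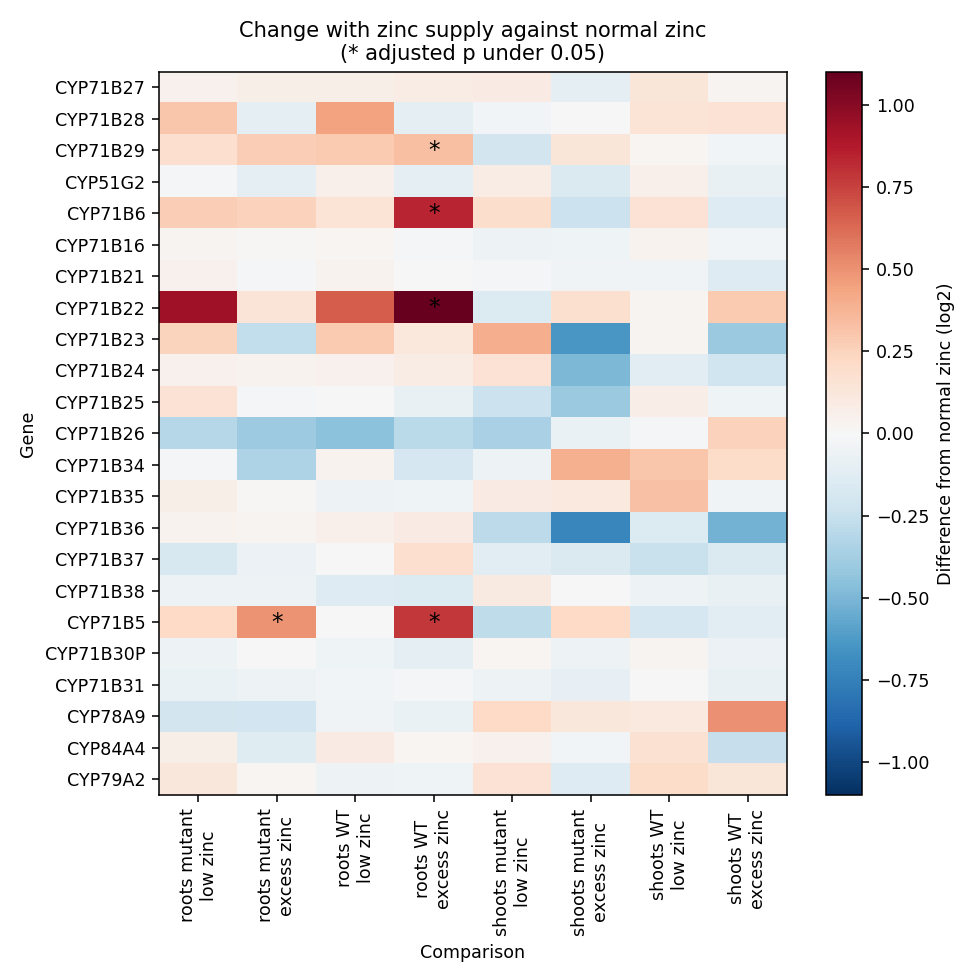
Log2 difference of low minus normal and of excess minus normal zinc for the 23 P450 genes in roots and in shoots, mutant and WT, as a colour scale with called differences starred. The stars stand at excess zinc in roots, 1 in the mutant (CYP71B5) and 4 in WT.

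In shoots the zinc supply called no member in either genotype (limma). Excess zinc gave calls for 3.20% of all probe sets in mutant shoots and 0.620% in WT shoots, and low zinc for 0.0659% in mutant shoots and 0.703% in WT shoots. At an unadjusted p under 0.05 there were 4 of the 23 genes at excess zinc in the mutant (20.0% of all probe sets), 2 at excess zinc in WT (9.92%), 1 at low zinc in the mutant (7.46%) and 1 at low zinc in WT (11.0%). The closest was CYP71B25 in mutant shoots, with 4.64, 4.68 and 4.69 log2 at excess zinc against 5.36, 5.06 and 4.83 log2 at normal zinc (log2 difference -0.41, adjusted p = 0.0693). Its 3 arrays at excess zinc lay below those at normal zinc, and all 3 were under the floor. CYP71B36 (-0.72 log2, adjusted p = 0.133) and CYP71B23 (-0.64 log2, adjusted p = 0.121) also had non-overlapping groups there, as did 7 genes in all (30.4%, against 25.9% of all probe sets). At low zinc in mutant shoots 7 genes had such groups (30.4%, against 13.0% of all probe sets). In WT shoots 6 genes had them at excess zinc (26.1%, against 18.9%) and 1 at low zinc (4.35%, against 13.9%). CYP78A9 read 7.58, 7.75 and 7.60 log2 in WT shoots at excess zinc against 7.45, 6.97 and 7.01 log2 at normal zinc (log2 difference 0.50, adjusted p = 0.22), and it was called once replicate 1 of WT shoots at low zinc, which stood apart, was left out of the fit. Excess and normal zinc carry different array file codes in shoots and cannot be told apart from them.

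The response to excess zinc differed between roots and shoots of WT in 2 genes (8.70%, against 4.61% of all probe sets). CYP71B6 differed by 0.83 log2 in roots and by -0.14 log2 in shoots, an interaction of 0.98 log2 (SE 0.16, adjusted p = 0.000184). CYP71B5 differed by 0.78 log2 in roots and by -0.13 log2 in shoots, an interaction of 0.91 log2 (SE 0.21, adjusted p = 0.00663). Without replicate 2 of WT roots at excess zinc the interactions were 0.86 log2 for CYP71B6 (adjusted p = 0.000431) and 0.91 log2 for CYP71B5 (adjusted p = 0.00985). The shoot differences of both genes were not called, and the shoot arrays read 9.72, 9.52 and 9.67 log2 for CYP71B6 and 7.15, 7.43 and 7.34 log2 for CYP71B5 at excess zinc, against 9.76, 9.72 and 9.85 log2 and 7.07, 7.46 and 7.76 log2 at normal zinc. With only the arrays of the 4 groups compared, the interaction of CYP71B5 was not called (adjusted p = 0.118). The shoot side of this test compares arrays of different file codes, which cannot be told apart from the supply. CYP71B22 (0.81 log2, adjusted p = 0.225) and CYP71B29 (0.36 log2, adjusted p = 0.397) did not pass the test, and at low zinc no gene did (0.404% of all probe sets were called, and 2 of the 23 genes had an unadjusted p under 0.05, beside 10.2% of all probe sets).

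Mutant and WT shoots differed at low zinc in 2 genes, 1 in each direction (8.70%, against 5.88% of all probe sets). CYP71B23 read 10.26, 10.81 and 10.28 log2 in mutant shoots against 9.93, 9.84 and 9.14 log2 in WT shoots. The 3 mutant arrays were above the 3 WT arrays, and CYP71B23 was 1.75-fold higher in the mutant (log2 difference 0.81, SE 0.22, adjusted p = 0.0417). CYP71B34 read 7.64, 7.50 and 7.56 log2 in mutant shoots against 8.54, 7.96 and 8.03 log2 in WT shoots, again without overlap, and was 1.53-fold lower in the mutant (log2 difference -0.61, SE 0.15, adjusted p = 0.0267). Without replicate 1 of WT shoots at low zinc, the array with the high actin difference and the highest of the WT values in both genes, CYP71B34 was not called (-0.43 log2, adjusted p = 0.0880) and CYP71B23 was (0.96 log2, adjusted p = 0.0355). CYP71B23 kept its call in 8 of 18 fits that each left out 1 shoot array, with differences of 0.56 to 0.96 log2, and CYP71B34 in 15 of 18, with differences of -0.72 to -0.43 log2. Arrays of the 2 groups themselves whose removal ended a call were replicate 3 of WT for CYP71B23 (0.56 log2) and replicates 2 and 3 of the mutant for both genes (0.63 and 0.90 log2 for CYP71B23, -0.58 and -0.61 log2 for CYP71B34). The replicate block ended the call of CYP71B23 (adjusted p = 0.0562), and the fit with only the 6 arrays of the 2 groups ended both (adjusted p = 0.164 for CYP71B23 and 0.137 for CYP71B34).

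Neither gene passed the test of whether the response to low zinc differed between the genotypes in shoots (CYP71B23 0.37 log2, adjusted p = 0.943, and CYP71B34 -0.36 log2, adjusted p = 0.940). In that test 0.0132% of all probe sets were called and none of the 23 genes had an unadjusted p under 0.05 (4.78% of all probe sets), and the same test at excess zinc called none (0.00%), with 1 of the 23 genes and 8.11% of all probe sets at an unadjusted p under 0.05. At normal zinc their shoot values already lay the same way, with 9.99, 10.18 and 9.97 log2 in mutant shoots against 9.25, 9.83 and 9.74 log2 in WT shoots for CYP71B23, and 7.68, 7.54 and 7.65 log2 in mutant shoots against 7.90, 7.79 and 7.94 log2 in WT shoots for CYP71B34. Both genes had non-overlapping groups at normal zinc, which 3 genes (13.0%) and 14.8% of all probe sets had, and neither was called. At excess zinc the groups of both genes overlapped. No member was called between mutant and WT shoots at normal or excess zinc (limma), where 0.0220% and 0.0308% of all probe sets were. At an unadjusted p under 0.05 there was none of the 23 genes at normal zinc, beside 7.91% of all probe sets, and 1 at excess zinc, beside 6.50%.

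**Figure D5:**
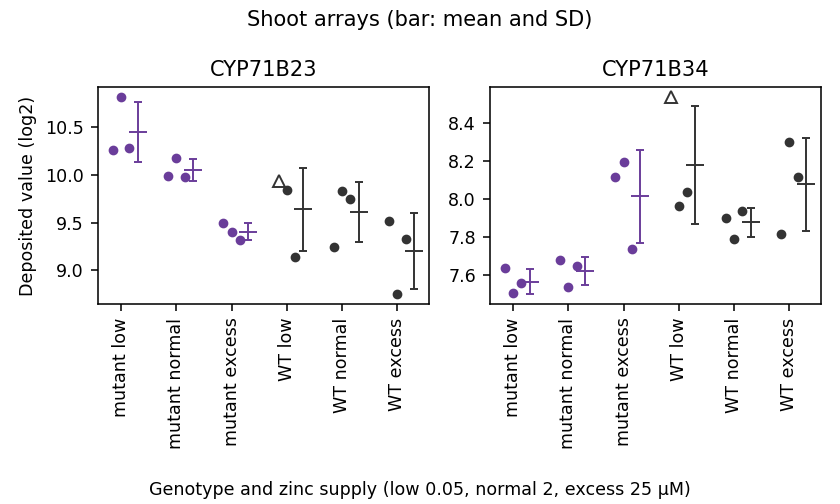
Log2 levels of CYP71B23 and CYP71B34 on each of the 18 shoot arrays by genotype and zinc supply, with bars for group mean and SD. At low zinc the mutant arrays of CYP71B23 lie above and those of CYP71B34 below the WT arrays, and the triangle marks replicate 1 of WT shoots at low zinc.

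By role, few of the measured genes have a known pathway. The list of camalexin and related indole defence enzymes had 1 of 5 genes measured, CYP71B6, and the glucosinolate list had 1 of 11, CYP79A2, which was at the floor. The phenylpropanoid list had 1 of 7, CYP84A4, whose zinc and genotype differences were not called. The monoterpene list had 1 of 7, CYP71B31, and the organ growth list had 1 of 5, CYP78A9. Lists for brassinosteroid, gibberellin, abscisic acid, cytokinin, strigolactone, coumarin, jasmonate, sterol, carotenoid, triterpene, cutin and suberin P450s had none measured. Of 7 P450 reductase and cytochrome b5 genes and 11 suberin genes outside the P450s none was measured. Among non-P450 genes of the indole pathways, UGT74B1, the glucosyltransferase that forms desulfoglucosinolates, was 1 of 15 measured. Like CYP71B6, it rose in WT roots at excess zinc (0.54 log2, adjusted p = 0.000482) and was lower in mutant than in WT roots there (-0.38 log2, adjusted p = 0.0393). Its difference of 0.30 log2 in mutant roots at excess over normal zinc was not called (adjusted p = 0.066). UGT74B1 did not pass the test of whether the response to excess zinc differed between the genotypes in roots (-0.24 log2). In shoots its differences at excess over normal zinc were 0.49 log2 in WT and 0.38 log2 in the mutant, neither called. Unlike that of CYP71B6, its tissue interaction at excess zinc in WT was not called (0.04 log2). Without replicate 2 of WT roots at excess zinc UGT74B1 was still higher in WT roots at excess than at normal zinc (0.48 log2, adjusted p = 0.00223), but its genotype difference was not called (-0.33 log2, adjusted p = 0.117). Of 6 coumarin genes 2 were measured, and both rose at excess zinc in roots of both genotypes. F6'H1, which forms the precursor of scopoletin, rose by 1.06 log2 in mutant roots (adjusted p = 4.58e-06) and by 1.22 log2 in WT roots (adjusted p = 4.69e-07). BGLU42, a glucosidase that frees coumarins for secretion, rose by 1.36 log2 in mutant roots (adjusted p = 0.000122) and by 1.75 log2 in WT roots (adjusted p = 3.49e-06). Without the same array the WT differences were 1.28 log2 for F6'H1 (adjusted p = 5.89e-07) and 1.65 log2 for BGLU42 (adjusted p = 2.06e-05).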

How the data were processed

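Each sample's RNA was biotin-labelled and read on its own Affymetrix ATH1 array, per the labels' protocols. The authors deposited 1 log2 value per probe set and array, with RMA and limma named in the submitters' processing notes; their versions are not known here. Array medians were 6.87 to 6.99 log2, and no further normalization was applied. The 64 control probe sets of 22810 were left out. No filter was set on low values.

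A platform table names a single gene for 13513 probe sets, and 13436 of these matched RefSeq (TAIR10.1), from which only names and the order of genes were taken. Not counted as members were 2 probe sets shared by several genes that include a P450 symbol. Left out as well were 3 symbols that begin with CYP but lack a subfamily letter, CYP71, CYP59 and CYP718, and such a symbol alone does not show a P450 gene. No sequences were used here.

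Groups followed the labels. limma 3.58.1 (R 4.3.3; lmFit, contrasts.fit, eBayes) was fitted to the 24 root and the 18 shoot arrays separately, and to all 42 for tissue comparisons, with 21 comparisons in all and p-values adjusted within each (Benjamini-Hochberg, 2-sided). The scripts were tested on simulated data. The number of arrays limits the precision. Called genes were named, up to 12 in each direction and comparison (15 between tissues), along with members of role lists and, chosen after their values were seen, the closest genes that missed the threshold. The members and lists were chosen with earlier results of these data known. Replicate numbers were shared between groups: same-numbered arrays had correlated deviations of -0.45 to 0.50 over 14 comparisons, and every pair exceeded 0.1 in 1 of them, mutant against WT roots at normal zinc, where the block left no member called. Alternatives were the arrays in the fit, a replicate block, a filter on dim probe sets, median centring, cyclic loess, a trended robust prior, array file code and leaving out each array.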

Additional observations from a re-analysis of the deposited data

Results flagged for a closer look

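Among 90 root groups of 4 arrays (15 genes called in at least 1 comparison, each in 6 groups), 7 had 1 array apart from the other 3 by Dixon's test, which chance alone flags in about 1 of 20. In mutant roots at low zinc, replicate 4 was the lowest for CYP71B22 at 6.31 log2 and the highest for CYP71B23 at 9.46 log2, and replicate 2 was the lowest for CYP71B28 at 5.35 log2 and for CYP71B26 at 7.23 log2. In WT roots at low zinc, replicate 1 was the highest for CYP71B5 at 4.83 log2 and replicate 2 the lowest for CYP71B25 at 4.49 log2. In WT roots at normal zinc, replicate 3 was the highest for CYP51G2 at 6.53 log2. A difference between tissues was called for the WT response to excess zinc of CYP71B6 (0.98 log2 more in roots than in shoots) and of CYP71B5 (0.91 log2).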

How the results depend on the processing

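The root and shoot comparison gave 13 to 15 called genes when each of its 7 arrays was left out. Under the 6 other settings it gave 14 to 16. No called gene, in any comparison, changed direction under any alternative. Directions of named genes that were not called were not followed through the alternatives. Excess zinc in WT roots gave 4 genes in all 24 fits that left out 1 array and 2 with only the arrays of the groups compared. With all 42 arrays in one fit it gave 3, without CYP71B29 (adjusted p = 0.120). With only the arrays of the groups compared, mutant against WT roots at excess zinc gave 0 and mutant shoots at excess zinc gave 2. Fits of that kind gave 0 for mutant against WT shoots at low zinc and 1 for the tissue interaction at excess zinc. With all 42 arrays in a fit, mutant shoots at excess zinc gave 2 and mutant against WT shoots at low zinc gave 4 (CYP71B23, CYP71B24, CYP71B34 and CYP71B35). In mutant roots at excess zinc, cyclic loess gave 2 and the arrays of the shared file code alone 0. The replicate block left 1 gene, CYP71B34, in mutant against WT shoots at low zinc and changed no other count. Leaving out 1 array gave 0 to 1 genes for mutant roots at low zinc, mutant roots at excess zinc, the genotype interaction at excess zinc in roots, mutant shoots at excess zinc and WT shoots at excess zinc. It gave 0 to 3 for mutant against WT roots at excess zinc and 0 to 2 for mutant against WT shoots at low zinc. Beyond the arrays in the fit, the cause of these shifts was not tested. The 5 genes at or below the floor in all groups limit what can be said of them.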

Other observations

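A probe set shared by CYP71B19 and CYP71B20, which lie in the same chromosome 3 run as CYP71B22 to CYP71B24, was outside the rule because it names more than 1 gene. It had 6.43 ± 0.17 log2 in WT roots at normal zinc (SD, n = 4) and 9.72 ± 0.07 log2 in WT shoots (SD, n = 3), a difference of -3.29 log2 (limma adjusted p = 1.62e-22). At low zinc it had 10.17 ± 0.15 log2 in mutant shoots and 9.59 ± 0.19 log2 in WT shoots (SD, n = 3 each), a difference of 0.58 log2 (limma adjusted p = 0.0128). Without replicate 1 of WT shoots at low zinc that difference was 0.68 log2 (limma adjusted p = 0.0105). Of all probe sets, 5.88% were called between the genotypes in shoots at low zinc. At normal zinc the shared probe set had 10.19 ± 0.05 log2 in mutant and 9.72 ± 0.07 log2 in WT shoots. That difference of 0.47 log2 was not called (limma adjusted p = 0.465). Its response to low zinc did not differ between the genotypes by a called amount (0.11 log2, limma adjusted p = 0.971). CYP718, whose symbol has no subfamily letter, was higher in WT roots than in WT shoots at normal zinc by 0.88 log2 (limma adjusted p = 5.31e-05). The probe set shared by CYP79C2 and AT1G58265 was not called between the tissues (0.09 log2, limma adjusted p = 0.487).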
